A study of Mus musculus with 8 samples.

Results

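The S100 calcium-binding protein family is described here through 8 members, S100a8, S100a9, S100a4, S100a6, S100a10, S100a11, S100a13 and S100a1, in 4 populations of myeloid cells. The members are the rows of the gene count table whose symbol equals one of these names, 8 of 54188 genes, and all 8 were among the 17650 genes with enough counts to be tested. The table holds 18 genes with an S100 symbol, and the other 10 are described as a list further on.

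S100 proteins are small proteins with EF-hand loops, and most of them bind calcium. They work mostly as dimers, most of which open on binding calcium and then take hold of target proteins inside the cell. Several S100 proteins also act outside the cell on receptors of innate immunity. S100a8 and S100a9 form calprotectin, a main protein of the neutrophil cytosol that binds zinc and manganese and serves as a danger signal, and both are widely used as marks of neutrophils and of myeloid-derived suppressor cells (MDSCs).

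The cells came from sanroque mice, a lupus-prone C57BL/6 strain homozygous for the san allele of Roquin, labelled as female and 20 weeks old. All 4 groups carry this allele in every tissue, and no wild-type library was analysed here. CD11b+ myeloid cells were sorted on Gr-1, the epitope of an antibody that binds Ly6G and Ly6C, into Gr-1hi cells, labelled G-MDSC, and Gr-1lo cells, labelled M-MDSC. Each subset was taken from the spleen (SP) and from the BM, with 2 libraries in each of the 4 groups. These are libraries 5 and 6 (SP Gr-1hi), 7 and 8 (SP Gr-1lo), 9 and 10 (BM Gr-1hi) and 11 and 12 (BM Gr-1lo). The labels do not say whether each library holds 1 mouse or which libraries share a mouse. The study's methods give 2 independent biological replicates for each condition, and its results call the BM cells autologous. Libraries of different groups may thus share mice, and the fit treated all 8 as unpaired. The p values measure only the spread between these libraries.

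Depth ran from 33453580 to 68316154 counts per library. The sorted gates were seen in the RNA, since Ly6g, the granulocyte part of Gr-1, ran from 330.0 to 801 CPM (counts scaled to a common library size) in Gr-1hi libraries and from 3.07 to 8.23 CPM in Gr-1lo libraries. The labelled sex was not borne out in most libraries. Xist, the transcript of the inactive X chromosome, had 12032 counts in library 5 and 9898 in library 7 but at most 5 in the other 6 libraries, and Ddx3y, a gene of the Y chromosome, ran from 33.7 to 82.6 CPM in every library except library 5, where it was 0. Library 7 therefore held RNA of both kinds. Tissue differences and interactions of members that passed by adjusted p are also given without libraries 5 and 7. Those of the other members, the SP subset differences and the values of the listed genes are not.

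All 8 members lie on chromosome 3 in the GRCm38 build, in 2 blocks. From the first member on, the order is S100a1 (chr3:90511034-90514392, minus strand), S100a13 (chr3:90514435-90524581, plus), S100a4 (chr3:90603771-90606045, plus), S100a6 (chr3:90612882-90624181, plus), S100a8 (chr3:90668978-90670035, plus) and S100a9 (chr3:90692632-90695721, minus). The second block starts 2824766 bases beyond S100a9 and holds S100a11 (chr3:93520488-93526287, plus) and S100a10 (chr3:93555080-93564643, plus). The closest neighbours are S100a1 and S100a13, which point away from each other across a gap of 42 bases, followed by S100a4 and S100a6, which lie 6836 bases apart.

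Promoter windows from RefSeq on GRCm38.p6 were found for 7 of the 8 members, all except S100a10. The 250 bases before the annotated start are shown for S100a8 and S100a9, whose levels moved together, and for S100a4 and S100a6, neighbours whose levels moved in opposite directions. They are printed 5′ to 3′ on the strand of the gene, and capitals mark matches to motifs searched on both strands. The windows are chr3:90668821-90669070 (plus) for S100a8, chr3:90695722-90695971 (minus) for S100a9, chr3:90603520-90603769 (plus) for S100a4 and chr3:90612644-90612893 (plus) for S100a6. The last 93 bases of the S100a8 window and the last 12 of the S100a6 window lie inside the wider gene models of GENCODE.
S100a8: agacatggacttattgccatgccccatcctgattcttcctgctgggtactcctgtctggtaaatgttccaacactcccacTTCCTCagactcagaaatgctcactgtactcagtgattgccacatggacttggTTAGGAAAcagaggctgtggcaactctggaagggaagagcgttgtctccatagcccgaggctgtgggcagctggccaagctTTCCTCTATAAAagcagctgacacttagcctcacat
S100a9: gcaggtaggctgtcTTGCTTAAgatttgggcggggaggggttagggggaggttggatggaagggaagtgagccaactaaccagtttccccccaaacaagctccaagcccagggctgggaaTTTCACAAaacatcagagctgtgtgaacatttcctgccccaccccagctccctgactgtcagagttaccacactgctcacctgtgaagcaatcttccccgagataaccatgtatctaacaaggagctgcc
S100a4: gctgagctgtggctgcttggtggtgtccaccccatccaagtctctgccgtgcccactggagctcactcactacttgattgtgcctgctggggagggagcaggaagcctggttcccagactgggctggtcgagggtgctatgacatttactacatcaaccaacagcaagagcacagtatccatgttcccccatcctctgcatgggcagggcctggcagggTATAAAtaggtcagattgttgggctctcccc
S100a6: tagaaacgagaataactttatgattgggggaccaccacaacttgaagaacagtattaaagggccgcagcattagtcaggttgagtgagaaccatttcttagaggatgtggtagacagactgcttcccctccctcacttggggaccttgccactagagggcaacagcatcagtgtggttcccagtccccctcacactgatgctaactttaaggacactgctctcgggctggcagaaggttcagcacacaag

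The motifs searched were TTNCNNAA for C/EBP factors and within it the tighter TTGCNNAA, GAGGAA for PU.1, TGANTCA for AP-1, TTCNNNGAA for STAT factors, and TATAAA for the TATA box, over 250 bases before and 50 after the start. The S100a8 window held TATAAA from -30 to -25, GAGGAA on the reverse strand from -170 to -165 and from -36 to -31, the latter directly adjoining the TATA box, and TTNCNNAA, also on the reverse strand, from -117 to -110. The S100a9 window held TTNCNNAA from -236 to -229, where the tighter form also matched, and from -130 to -123, and its TATAAA ran from 1 to 6 of the annotated start and so lies outside the bases shown. The S100a4 window held TATAAA from -31 to -26 and GAGGAA on the reverse strand from 20 to 25, beyond the bases shown, while none of these motifs matched in the S100a6 window. Such matches are common, since of 32851 RefSeq windows 40.7% held TTNCNNAA, 10.8% TTGCNNAA, 28.3% GAGGAA, 7.81% TGANTCA, 8.30% TTCNNNGAA and 13.6% TATAAA. They describe the letters of the windows and do not show that a factor binds.

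The members fell into 3 patterns across the sort. S100a8, S100a9, S100a6 and S100a11 were higher in Gr-1hi than in Gr-1lo cells of both tissues, S100a4, S100a10 and S100a1 were lower, and S100a13 did not pass the test in either tissue. In the BM, 7 of 8 members were called at a fold change (FC) of at least 2 and an adjusted p of at most 0.05, 4 higher and 3 lower in Gr-1hi cells. Calls were frequent in that comparison, with 57.3% of all tested genes called, 24.2% higher and 33.1% lower. In the SP the same 7 members were called in the same directions, where 49.6% of all genes were called, 22.3% higher and 27.4% lower. With the stricter rule that the study used for subsets, an FC of more than 8 at an adjusted p under 0.01, 5 members remained in the BM (S100a8, S100a9, S100a11, S100a4 and S100a10) beside 16.7% of all genes, and 3 in the SP (S100a9, S100a4 and S100a10) beside 7.37%. The median log2 FC of the 8 members was 1.45 in the BM and 1.03 in the SP, and that of all tested genes was -0.17 and -0.09. In bulk samples such as these, fewer cells of a type and less RNA per cell cannot be told apart.

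**Figure D1:**
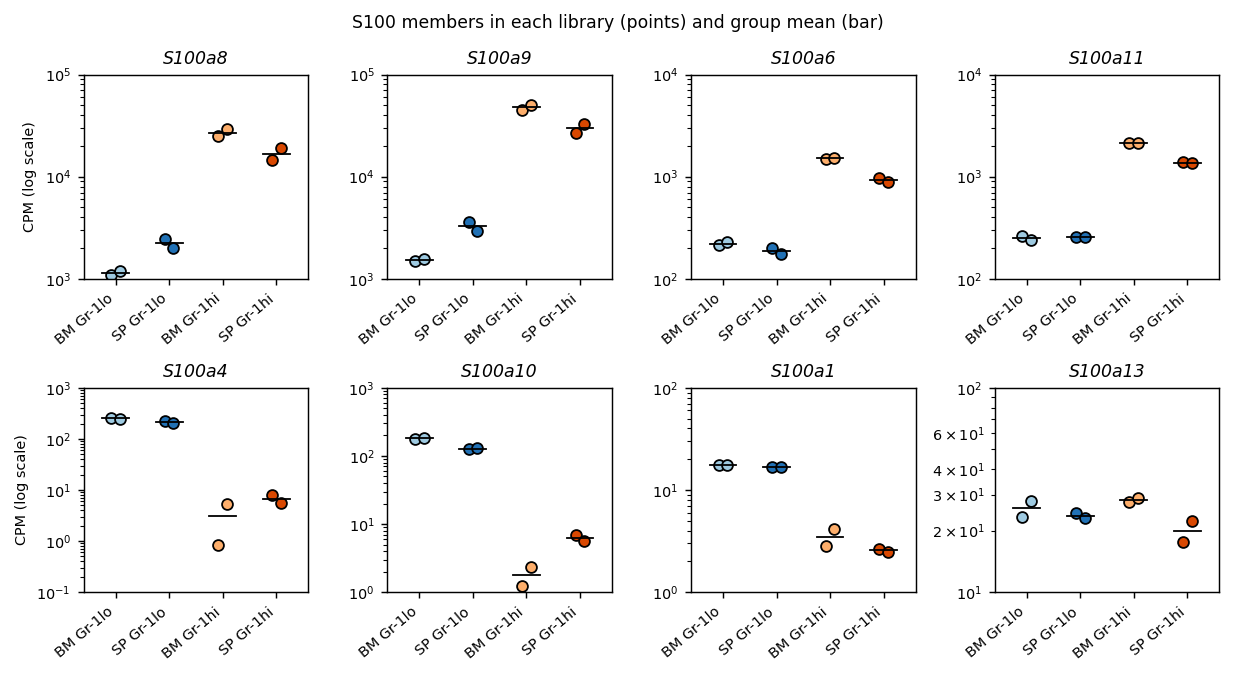
CPM of each S100 member (log axis, a separate range for each gene) in the 8 libraries, with 1 point per library and a bar at the mean of each group. The top row holds members that were higher in Gr-1hi cells, and the bottom row holds S100a4, S100a10 and S100a1, which were lower, and S100a13, which stayed between 17.6 and 28.9 CPM.

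Differences between SP and BM were fewer. In Gr-1hi cells, 1 of 8 members was called, S100a10, which was higher in the SP, where 15.5% of all genes were called and 14% were higher. By adjusted p alone, whatever the FC, 6 members differed, S100a10 upwards and S100a8, S100a9, S100a6, S100a11 and S100a13 downwards, beside 34% of all genes, 20.1% upwards and 13.9% downwards. In Gr-1lo cells, 1 of 8 members was called, S100a9, which was higher in the SP, where 4.06% of all genes were called and 3.84% were higher. By adjusted p alone S100a8 joined it, beside 5.58% of all genes. SP cells carried more RNA of other cell types, and these values stand beside the tissue results below.

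**Figure D2:**
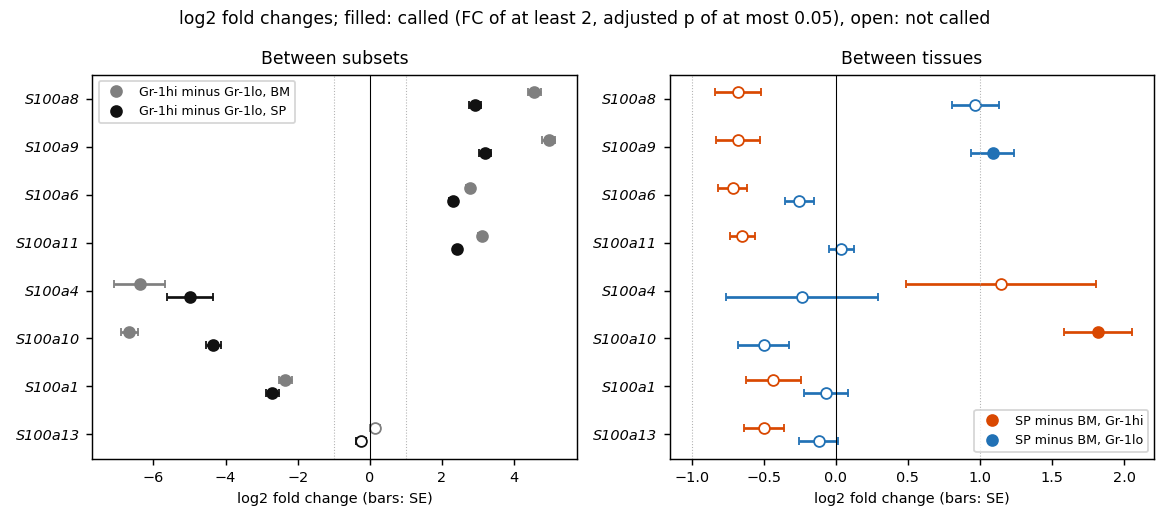
log2 FC of each member with its SE (horizontal bars), between Gr-1hi and Gr-1lo cells in the BM (gray) and SP (black) on the left, and between SP and BM in Gr-1hi (orange) and Gr-1lo cells (blue) on the right. Filled points were called at an FC of at least 2 and an adjusted p of at most 0.05, and dotted lines mark that FC; only S100a10 in Gr-1hi cells and S100a9 in Gr-1lo cells were called between tissues.

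S100a9 was the gene with the most counts in every Gr-1hi library. It stood at 45181 and 50285 CPM in BM Gr-1hi cells, 26707 and 32892 CPM in SP Gr-1hi cells, 3615 and 2912 CPM in SP Gr-1lo cells and 1492 and 1579 CPM in BM Gr-1lo cells. The 4 groups did not overlap, and both Gr-1lo groups lay far below both Gr-1hi groups. The log2 FC of Gr-1hi over Gr-1lo cells was 4.96 (SE 0.18, adjusted p = 1.41e-07) in the BM and 3.19 (SE 0.16, adjusted p = 1.16e-06) in the SP.

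S100a8, the partner of S100a9 in calprotectin, kept the same order. It stood at 24773 and 28999 CPM in BM Gr-1hi cells, 14700.0 and 18949 CPM in SP Gr-1hi cells, 2450.2 and 2020.2 CPM in SP Gr-1lo cells and 1091 and 1192 CPM in BM Gr-1lo cells. The groups again did not overlap, and the log2 FC of Gr-1hi over Gr-1lo cells was 4.56 (SE 0.19, adjusted p = 1.93e-07) in the BM and 2.91 (SE 0.17, adjusted p = 2.02e-06) in the SP. Together both genes took 5.43 ± 0.438% (SD, n = 2) of all counts in BM Gr-1hi cells, 3.91 ± 0.480% in SP Gr-1hi cells, 0.702 ± 0.111% in SP Gr-1lo cells and 0.342 ± 0.00848% in BM Gr-1lo cells.

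The calprotectin genes differed between tissues in opposite directions in the 2 subsets. In Gr-1hi cells, the log2 difference of SP from BM was -0.68 for S100a8 (SE 0.16, adjusted p = 0.0133) and -0.68 for S100a9 (SE 0.15, adjusted p = 0.0103), both short of a 2-fold difference. With edgeR's exact test on quantile-normalised TPM, the value was -0.000685 for each (adjusted p = 1), which this normalisation fixed in advance. By TPM, S100a9 ranked 1 and S100a8 ranked 2 in every Gr-1hi library, and genes of the same rank get the same value. The result therefore does not bear on the tissue difference. In Gr-1lo cells, S100a9 was 2.12-fold higher in the SP (log2 FC 1.09, SE 0.15, adjusted p = 0.00439) and S100a8 was 1.96-fold higher (log2 FC 0.97, SE 0.16, adjusted p = 0.01003), just below the threshold of 2. On quantile-normalised TPM these values were 2.70 for S100a9 (adjusted p = 6.53e-06) and 0.67 for S100a8 (adjusted p = 0.00485). These too depend on rank. S100a9 ranked 1 in library 7 and 3 in library 8, against 13 in library 11 and 11 in library 12. Library 7 thus got the same S100a9 value as the Gr-1hi libraries, so the size of 2.70 does not measure the tissue difference. The difference of the subset gap between tissues was tested as an interaction, SP minus BM, in which 9.74% of all genes were called, 7.74% upwards and 2% downwards. Of the 8 members, 3 were called, S100a8 and S100a9 downwards and S100a10 upwards, and S100a11 passed by adjusted p alone, as 16.4% of all genes did. The interaction was -1.65 for S100a8 (SE 0.23, adjusted p = 0.00440) and -1.77 for S100a9 (SE 0.21, adjusted p = 0.00321), so the gap was about 3.13-fold and 3.40-fold narrower in the SP.

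The summed level of genes of neutrophil granules was lower in SP than in BM Gr-1hi cells and higher in SP than in BM Gr-1lo cells, and not every gene of the list was called. The 8 granule genes listed were Ltf, Camp, Ngp, Lcn2, Elane, Mpo, Prtn3 and Ctsg. Their summed CPM ran from 29227 to 51663 in SP Gr-1hi, 64133 to 72791 in BM Gr-1hi, 7510 to 8645 in SP Gr-1lo and 5334 to 5537 in BM Gr-1lo libraries. The list was mixed between subsets, with 4 genes called higher and 4 lower in Gr-1hi cells of each tissue. Of all genes, 24.2% were called higher and 33.1% lower in the BM, and 22.3% and 27.4% in the SP. Of these 8, 3 were called lower in SP than BM Gr-1hi cells, where 1.48% of all genes were, and in Gr-1lo cells 3 were called higher and 1 lower, beside 3.84% and 0.215% of all genes. The sum of 6 genes of mature neutrophils ran from 22854 to 24262 CPM in SP Gr-1hi and 33181 to 37061 CPM in BM Gr-1hi libraries, with 2 called lower, and from 663 to 721 against 633 to 679 CPM in Gr-1lo libraries. The part of these cells or stages in the calprotectin result was not tested.

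Without libraries 5 and 7, the log2 FC of SP over BM Gr-1hi cells was -0.49 for S100a8 (adjusted p = 0.0535) and -0.53 for S100a9 (adjusted p = 0.0318), and that of Gr-1lo cells was 0.81 (adjusted p = 0.0146) and 0.91 (adjusted p = 0.00511). S100a9 in Gr-1lo cells was thus short of the 2-fold threshold there and also without library 7 alone (0.92, adjusted p = 0.0352), whereas S100a8 was past it without library 8 (1.102, adjusted p = 0.0310). S100a8 in Gr-1lo cells did not pass by adjusted p without library 7 (0.82, adjusted p = 0.0759), library 11 (0.91, adjusted p = 0.0898) or library 12 (1.03, adjusted p = 0.0649). The interaction stayed called without both libraries, at -1.30 for S100a8 (adjusted p = 0.0163) and -1.44 for S100a9 (adjusted p = 0.0103).

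S100a6 and S100a11 showed the same order between subsets at lower levels and with smaller folds. S100a6, also named calcyclin, binds the ubiquitin ligase adaptor encoded by Cacybp and several annexins. It stood at 1487 and 1541 CPM in BM Gr-1hi cells, 961 and 881 CPM in SP Gr-1hi cells, 212 and 230.3 CPM in BM Gr-1lo cells and 198 and 173 CPM in SP Gr-1lo cells. No groups overlapped, and the log2 FC of Gr-1hi over Gr-1lo cells was 2.77 (SE 0.11, adjusted p = 1.68e-07) in the BM and 2.31 (SE 0.11, adjusted p = 7.02e-07) in the SP.

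S100a11, a partner of annexin A1 at membranes, differed little between the libraries of a group. It stood at 2154 and 2155 CPM in BM Gr-1hi cells, 1377 and 1369 CPM in SP Gr-1hi cells, 258 and 256 CPM in SP Gr-1lo cells and 264 and 237 CPM in BM Gr-1lo cells. The Gr-1hi groups lay apart from each other and from the Gr-1lo groups, and the Gr-1lo groups of the 2 tissues overlapped. The log2 FC of Gr-1hi over Gr-1lo cells was 3.10 (SE 0.09, adjusted p = 8.84e-08) in the BM and 2.42 (SE 0.09, adjusted p = 4.00e-07) in the SP.

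Between tissues, both genes were lower in SP than in BM Gr-1hi cells, though by less than 2-fold. The log2 FC was -0.72 for S100a6 (SE 0.10, adjusted p = 0.00152) and -0.65 for S100a11 (SE 0.09, adjusted p = 0.00123), and without libraries 5 and 7 it was -0.77 (adjusted p = 0.00553) and -0.64 (adjusted p = 0.0122). On quantile-normalised TPM the difference was -0.65 for S100a6 (adjusted p = 1.78e-06) and -0.06 for S100a11 (adjusted p = 1). In Gr-1lo cells neither passed the test, with -0.25 for S100a6 (SE 0.10, adjusted p = 0.210) and 0.04 for S100a11 (SE 0.09, adjusted p = 0.846). The interaction of S100a11 was -0.69 (SE 0.12, adjusted p = 0.0101), a 1.61-fold difference, and that of S100a6 was -0.46 (SE 0.14, adjusted p = 0.0586).

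S100a10 and S100a4 had the reverse pattern. S100a10 binds annexin A2, and the complex holds the giant scaffold protein Ahnak and plasminogen at the cell surface. It stood at 176 and 185 CPM in BM Gr-1lo cells, 126 and 130 CPM in SP Gr-1lo cells, 6.96 and 5.58 CPM in SP Gr-1hi cells and 1.23 and 2.35 CPM in BM Gr-1hi cells. No groups overlapped, and the log2 FC of Gr-1hi over Gr-1lo cells was -6.66 (SE 0.25, adjusted p = 1.61e-07) in the BM, a 101.5-fold difference, and -4.35 (SE 0.21, adjusted p = 1.03e-06) in the SP, a 20.4-fold difference.

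In Gr-1hi cells S100a10 was 3.53-fold higher in the SP than in the BM (log2 FC 1.82, SE 0.24, adjusted p = 0.00121), against the direction of the other members that differed there. In Gr-1lo cells the log2 FC was -0.50 (SE 0.18, adjusted p = 0.168). The interaction was 2.32 (SE 0.30, adjusted p = 0.00381), so the gap between subsets was 4.98-fold narrower in the SP. Without libraries 5 and 7, the tissue difference of Gr-1hi cells was 1.66 (adjusted p = 0.0157) and the interaction 2.15 (adjusted p = 0.0315). On quantile-normalised TPM with the exact test of edgeR, the tissue difference in Gr-1hi cells was 1.40 with an adjusted p of 0.0740.

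RNA of several other cell types, though not of all those listed, was higher in SP than in BM cells. Of all genes, 14% were called higher in SP than in BM Gr-1hi cells and 3.84% in SP than in BM Gr-1lo cells. The summed CPM of 7 B cell genes ran from 328 to 481 in SP Gr-1hi and from 14.2 to 17.4 in BM Gr-1hi libraries, with all 7 called higher. In Gr-1lo libraries it ran from 60.4 to 76.3 in the SP and from 7.76 to 9.67 in the BM, with 6 called higher. The sum of 6 T cell genes ran from 49.2 to 79.1 CPM in SP Gr-1hi and from 5.70 to 8.79 CPM in BM Gr-1hi libraries, with 5 called higher. In Gr-1lo libraries it ran from 17.0 to 24.8 CPM in the SP and 1.07 to 1.27 CPM in the BM, with 6 called higher. Plasma cell genes (4 of 4 tested), NK cell genes (4 of 5) and splenic macrophage genes (5 of 6) were also called higher in SP Gr-1hi cells. In Gr-1lo cells 3, 3 and 5 of them were, and none of these lists held a gene called lower in the SP. Genes of eosinophils, basophils and mast cells overlapped between tissues in Gr-1hi cells (34.9 to 43.5 CPM in the SP and 28.8 to 51.3 CPM in the BM), and those of dendritic cells in Gr-1lo cells (4.44 to 5.95 and 4.18 to 7.27 CPM). Erythroid RNA also differed between the SP Gr-1hi libraries. The sum of 6 erythroid genes ran from 217 to 731 CPM in SP Gr-1hi and from 35.7 to 43.8 CPM in BM Gr-1hi libraries, with 5 called higher. In Gr-1lo libraries it ran from 166 to 232 CPM in the SP and 7.64 to 8.24 CPM in the BM, with 6 called higher. The sum of 7 monocyte genes, which was 5247 to 8360 CPM across Gr-1lo libraries, ran from 351 to 471 CPM in SP Gr-1hi and from 193 to 238 CPM in BM Gr-1hi libraries, with 4 called higher. None of the genes in the B cell, T cell, erythroid and monocyte lists was at 0 in both libraries of an SP Gr-1hi or BM Gr-1hi group, and their part in the higher S100a10 of SP Gr-1hi cells was not tested.

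S100a4, a protein of motile cells that binds non-muscle myosin, stood at 256 and 248 CPM in BM Gr-1lo cells, 219 and 209 CPM in SP Gr-1lo cells, 7.87 and 5.52 CPM in SP Gr-1hi cells and 0.822 and 5.33 CPM in BM Gr-1hi cells. No groups overlapped, although library 10 lay just below library 6. The log2 FC of Gr-1hi over Gr-1lo cells was -6.38 (SE 0.70, adjusted p = 0.000263) in the BM and -5.00 (SE 0.64, adjusted p = 0.000642) in the SP. The BM value rests on 2 unlike libraries, and it was -8.16 without library 10 and -5.49 without library 9.

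The 2 BM Gr-1hi libraries also set the tissue difference of S100a4. It was 1.15 on the log2 scale in Gr-1hi cells (SE 0.66, adjusted p = 0.230) with all libraries and 1.02 (adjusted p = 0.0477), past the threshold, on quantile-normalised TPM. It was 2.94 (adjusted p = 0.00347) without library 10 and 0.27 (adjusted p = 0.381) without library 9. The interaction was 1.38 (SE 0.84, adjusted p = 0.320) and became 3.15 (adjusted p = 0.00910) without library 10. Among monocyte markers, chosen after their values were seen, Ccr2 stood at 6.73 CPM in library 9 and 38.6 CPM in library 10 and Fn1 at 1.12 and 31.2 CPM, whereas Csf1r went the other way, at 175 and 133 CPM. The sum of all 7 monocyte genes was 193 CPM in library 9 and 238 CPM in library 10, and its part in the S100a4 value was not tested. In Gr-1lo cells the tissue difference of S100a4 was -0.23 (SE 0.53, adjusted p = 0.847).

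The level of S100a4 is uncertain for a further reason. Of its 584 exon bases, 302 are shared with Gm42674, a protein-coding gene model on the same strand, so that strand does not separate their reads. The counts of both were close in the Gr-1lo libraries, for example 10392 for S100a4 and 10184 for Gm42674 in library 7, and 22 and 44 in library 9. How reads in shared exons were assigned is not given in the sources used here.

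S100a1, best known as a regulator of calcium handling in muscle, was a rare transcript here. It stood at 17.5 and 17.7 CPM in BM Gr-1lo cells, 16.9 and 16.7 CPM in SP Gr-1lo cells, 2.84 and 4.13 CPM in BM Gr-1hi cells and 2.65 and 2.49 CPM in SP Gr-1hi cells. Both Gr-1hi groups lay below both Gr-1lo groups, by a log2 difference of -2.34 (SE 0.17, adjusted p = 3.22e-06) in the BM and -2.71 (SE 0.17, adjusted p = 2.97e-06) in the SP. The tissue differences were -0.43 (SE 0.19, adjusted p = 0.111) in Gr-1hi cells and -0.07 (SE 0.15, adjusted p = 0.843) in Gr-1lo cells.

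S100a13, which takes part in the export of proteins without a signal peptide such as interleukin 1 alpha, was nearly level. It stood at 27.6 and 28.9 CPM in BM Gr-1hi cells, 23.5 and 27.98 CPM in BM Gr-1lo cells, 24.4 and 23.0 CPM in SP Gr-1lo cells and 17.6 and 22.4 CPM in SP Gr-1hi cells. The BM groups overlapped with each other, and so did the Gr-1lo groups of both tissues. The log2 FC of Gr-1hi over Gr-1lo cells was 0.13 (SE 0.14, adjusted p = 0.401) in the BM and -0.25 (SE 0.14, adjusted p = 0.137) in the SP. It was lower in SP than in BM Gr-1hi cells by adjusted p alone (-0.50, SE 0.14, adjusted p = 0.0258), and without libraries 5 and 7 that value was -0.32 (adjusted p = 0.198).

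The scaling of the libraries shifted all subset differences together. The median log2 FC of all tested genes in the BM was -0.17 with TMM, -0.03 with RLE and -0.99 when only total counts were used, and in the SP it was -0.09, 0.04 and -0.69. The 7 called members kept their directions under each of these scalings. The direction of S100a13 in the BM did not hold, since it was -0.68 (adjusted p = 0.000962) with total counts only, less than the shift of the median gene. On quantile-normalised TPM the subset difference of S100a9 in the SP was 0.60 (adjusted p = 0.328), and that normalisation gives the same value to genes of the same rank. By TPM, S100a9 ranked 1 in every Gr-1hi library and in library 7, and 3 in library 8.

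Neighbours on the chromosome moved together in some cases and apart in others. S100a4 and S100a6 lie next to each other and moved in opposite directions between subsets, with log2 FC of -6.38 and 2.77 in the BM. S100a11 and S100a10, 28792 bases apart on the same strand, did likewise, with 3.10 and -6.66. S100a8 and S100a9, 22596 bases apart and on opposite strands, moved together, whereas S100a1 fell and S100a13, which starts beside it on the other strand, did not pass the test. The ratio of S100a11 to S100a10 TPM, a level per length of exon, ran from 2172 to 4141 in BM Gr-1hi, 469 to 582 in SP Gr-1hi, 4.69 to 4.86 in SP Gr-1lo and 3.04 to 3.55 in BM Gr-1lo libraries.

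**Figure D3:**
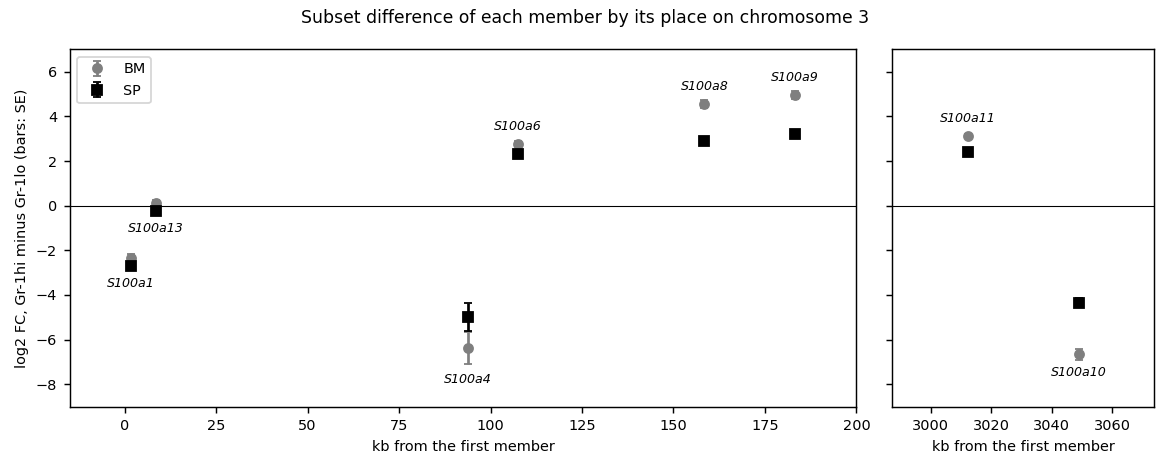
log2 FC of Gr-1hi over Gr-1lo cells, with SE, for each member against the distance of its midpoint from the start of the first member on chromosome 3, in kb, for the BM (gray circles) and the SP (black squares). The left panel holds the first block and the right panel the second, and adjoining members such as S100a4 (-6.38 in the BM) and S100a6 (2.77) lie on opposite sides of 0.

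The make-up of S100 mRNA was compared by TPM, which allows levels of different genes to be set side by side. S100a8 and S100a9 made up 95.8 to 96.2% of the summed TPM of the 8 members in BM Gr-1hi, 95.5 to 96.4% in SP Gr-1hi, 88.1 to 89.8% in SP Gr-1lo and 77.1 to 78.8% in BM Gr-1lo libraries. The Gr-1hi groups overlapped in this share, and the Gr-1lo groups lay below them and apart from each other. S100a8 alone held about the same share in every group, with means from 27.96% in BM Gr-1lo to 30.3% in SP Gr-1lo cells, while S100a9 ranged from 50.02% in BM Gr-1lo to 67.5% in BM Gr-1hi cells. S100a11 was the most abundant of the other 6 members in each group by mean TPM, at 7057 ± 251 TPM (SD, n = 2) in BM Gr-1hi and 1511 ± 132 TPM in BM Gr-1lo cells. S100a4 took 7.34 ± 0.404% of the summed member TPM in BM Gr-1lo and 3.47 ± 0.340% in SP Gr-1lo cells, with the limit on its level given above.

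The ratio of S100a9 to S100a8 by TPM ran from 2.31 to 2.42 in both Gr-1hi groups, from 1.92 to 1.96 in SP Gr-1lo and from 1.76 to 1.82 in BM Gr-1lo libraries. All 4 Gr-1hi libraries thus lay above all 4 Gr-1lo libraries, and no test was made of this ratio.

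**Figure D4:**
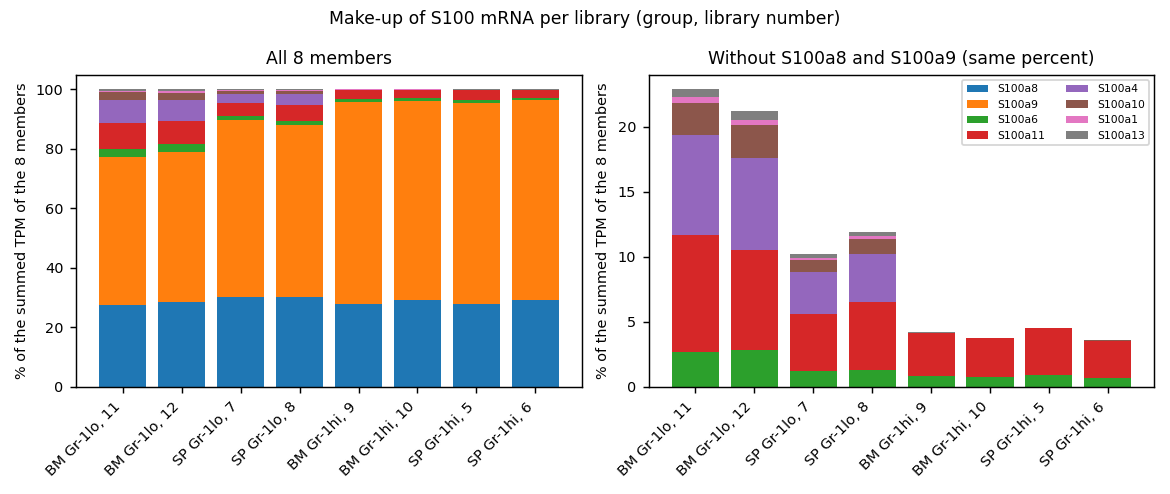
Share of each member in the summed TPM of the 8 members (percent, stacked bars from 0), for each library. The right panel leaves out S100a8 and S100a9 but keeps the same denominator, so that the other 6 members, which sum to 3.601 to 4.55% in Gr-1hi libraries and 10.2 to 22.9% in Gr-1lo libraries, can be seen.

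The 10 other S100 genes were nearly silent. S100b, S100g and S100z had no count in any library, which allows up to 3 counts. Over total counts, without the scaling of the other CPM values, that is 0.0439 to 0.0897 CPM per library. Only S100a2, S100a3 and S100a7a had enough counts to be tested, and none of them rose above 1.69 CPM. They passed that filter through the Gr-1hi libraries, so their subset differences are given as levels with no test. S100a2 stood at 1.07 ± 0.341 CPM (SD, n = 2) in BM Gr-1hi and 0.592 ± 0.155 CPM in SP Gr-1hi cells, S100a3 at 1.33 ± 0.0732 and 0.604 ± 0.00232 CPM, and S100a7a at 1.04 ± 0.122 and 1.45 ± 0.343 CPM. In Gr-1lo groups the means of these genes ran from 0.0102 to 0.0807 CPM, around what a count of 0 allows. S100a3 was called lower in SP than in BM Gr-1hi cells (-1.14, SE 0.34, adjusted p = 0.0323).

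Of 10 genes for receptors and surface partners of S100 proteins, 3 were called between subsets in the BM and 7 in the SP, each of them higher in Gr-1hi cells, where 24.2% and 22.3% of all genes were called higher. The median log2 FC was 0.80 in the BM and 1.23 in the SP. Bsg, which encodes basigin, was lower in BM Gr-1hi cells by less than 2-fold (-0.77, SE 0.09, adjusted p = 4.95e-05). Mcam, an adhesion molecule, had 40.5 ± 0.505 CPM (SD, n = 2) in BM Gr-1hi and 0.303 ± 0.0521 CPM in BM Gr-1lo cells, a subset difference of 7.04 on the log2 scale (SE 0.19, adjusted p = 8.23e-08). For Cd33, a sialic acid-binding receptor of myeloid cells, the subset difference was 5.34 (SE 0.21, adjusted p = 1.81e-07) in the BM and 4.76 (SE 0.20, adjusted p = 5.95e-07) in the SP. Ager, which encodes the receptor RAGE, had 2.36 (SE 0.11, adjusted p = 3.62e-07) and 2.15 (SE 0.11, adjusted p = 1.18e-06).

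The Toll-like receptor gene Tlr4 was called in the SP (1.22, SE 0.12, adjusted p = 3.39e-05) and, at 0.83 (SE 0.12, adjusted p = 0.000290), fell short of 2-fold in the BM. Its co-receptor Cd14 had 1.35 (SE 0.21, adjusted p = 0.000457) in the SP and 0.84 (SE 0.21, adjusted p = 0.00551) in the BM. Between tissues only Cd36, a scavenger receptor for fatty acids, was called, higher in SP Gr-1hi cells at 2.83 (SE 0.45, adjusted p = 0.00292). The interaction of Tlr4 was 0.39 (SE 0.17, adjusted p = 0.162) and that of Cd14 was 0.51 (SE 0.29, adjusted p = 0.269), so a difference between the tissues was not shown for either.

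Annexins, calcium-dependent membrane proteins that several S100 dimers bridge, divided between subsets in the same way in both tissues. Of 8, 4 were called higher in Gr-1hi cells (Anxa1, Anxa2, Anxa3 and Anxa11) and 3 lower (Anxa4, Anxa5 and Anxa6), beside 24.2% and 33.1% of all genes in the BM, and Anxa7 did not pass the test. Anxa1 had 5465 ± 826 CPM in BM Gr-1hi and 390 ± 11.7 CPM in BM Gr-1lo cells, with a log2 FC of 3.81 (SE 0.19, adjusted p = 4.00e-07), and its interaction was -1.34 (SE 0.24, adjusted p = 0.00993). Anxa2, the partner of S100a10, was higher in Gr-1hi cells (1.43, SE 0.09, adjusted p = 1.42e-06, in the BM), opposite in direction to S100a10 itself. Anxa6 was the only annexin called between tissues, higher in SP than in BM Gr-1hi cells (1.26, SE 0.13, adjusted p = 0.000363), where 14% of all genes were called higher. By adjusted p alone, Anxa1 (-0.70), Anxa2 (-0.32), Anxa3 (-0.93), Anxa5 (-0.77) and Anxa11 (-0.72) were lower in SP than in BM Gr-1hi cells, beside 13.9% of all genes.

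Of 9 intracellular and export partners, 6 were tested, and 2 were called higher and 3 lower in Gr-1hi cells of each tissue. Of all genes, 24.2% were called higher and 33.1% lower in the BM, and 22.3% and 27.4% in the SP. The 2 called higher were Myh9 and Il1a, and the Il1a call carries no weight, since it passed the filter through the SP libraries. Ahnak, the scaffold bound by S100a10 and annexin A2, had 820.2 ± 81.7 CPM in BM Gr-1lo and 13.2 ± 6.47 CPM in BM Gr-1hi cells. Its log2 FC was -5.96 (SE 0.36, adjusted p = 3.28e-06) in the BM and -3.60 (SE 0.32, adjusted p = 3.62e-05) in the SP, and in Gr-1hi cells it was higher in the SP by 2.73 (SE 0.32, adjusted p = 0.00116), directions it had in common with S100a10. Myh9, a myosin heavy chain bound by S100a4, was higher in Gr-1hi cells at 2.19 (SE 0.13, adjusted p = 9.62e-07) in the BM, opposite to S100a4. Cacybp was lower at -1.999 (SE 0.14, adjusted p = 2.53e-06), opposite to S100a6, and Trp53 was lower at -1.71 (SE 0.10, adjusted p = 8.19e-07).

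Il1a, whose protein leaves the cell with S100a13, was low throughout, at 1.31 ± 0.188 CPM in SP Gr-1hi and 0.155 ± 0.0446 CPM in BM Gr-1hi cells. In Gr-1lo cells it stood at 0.326 ± 0.162 CPM in the SP and 0.00945 ± 0.0134 CPM in the BM. It passed the filter on counts through the SP libraries, so no fold is given. Fgf1, Plg and Plat had too few counts to be tested.

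Among 7 transcription factors of myeloid cells, 4 were called higher and 1 lower in Gr-1hi cells of each tissue. Beside them, 24.2% of all genes were called higher and 33.1% lower in the BM, and 22.3% and 27.4% in the SP. Cebpd, Spi1 and Stat3 were higher in both, with log2 FC in the BM of 2.33 (SE 0.14, adjusted p = 8.76e-07), 1.52 (SE 0.10, adjusted p = 1.55e-06) and 1.17 (SE 0.09, adjusted p = 3.70e-06). Cebpe, a factor of granule genes, was called in the BM (2.18, SE 0.25, adjusted p = 7.06e-05) and, at 0.79 (SE 0.24, adjusted p = 0.0170), fell short of 2-fold in the SP, with an interaction of -1.38 (SE 0.34, adjusted p = 0.0314). Cebpb, a factor of emergency granulopoiesis, was called in the SP (1.08, SE 0.25, adjusted p = 0.00578) and between tissues in Gr-1hi cells (1.08, SE 0.26, adjusted p = 0.0155). Its subset difference in the BM was 0.52 (SE 0.25, adjusted p = 0.0963). The interaction of Cebpb was 0.56 (SE 0.36, adjusted p = 0.328), so a difference of the subset gap between tissues was not shown. Cebpa was lower in both, at -1.82 (SE 0.22, adjusted p = 7.93e-05) in the BM, and Gfi1 did not pass the test.

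EF-hand proteins outside the family served as a comparison. Of 10, 4 were called higher in BM Gr-1hi cells (Sri, Pef1, Efhd2 and Lcp1), and 3 in SP Gr-1hi cells (Sri, Pef1 and Lcp1), beside 24.2% and 22.3% of all genes. Between tissues Sri was lower in SP than in BM Gr-1hi cells by adjusted p alone (-0.50, SE 0.11, adjusted p = 0.00877).

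**Figure D5:**
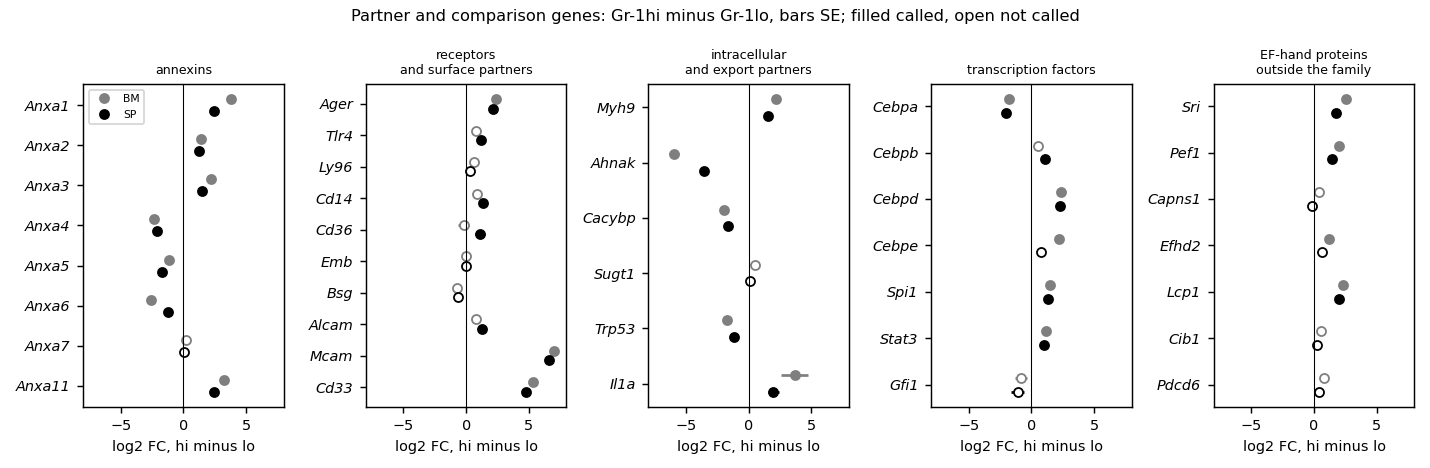
log2 FC of Gr-1hi over Gr-1lo cells, with SE, in the BM (gray) and SP (black) for tested genes of 5 lists around the S100 family. Filled points were called at an FC of at least 2 and an adjusted p of at most 0.05; Mcam (7.04 in the BM) and Ahnak (-5.96) lie farthest from 0.

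The genes nearest to each member were found among 9743 tested genes outside the family with at least 10 CPM in their highest group, by the root mean square (RMS) difference in centred log2 CPM over the 8 libraries. Nearest to S100a8 were Reck, which encodes a membrane inhibitor of metalloproteinases (RMS 0.0759), and Pglyrp1, a granule protein that binds peptidoglycan (0.129). Nearest to S100a9 were Trp53inp2 (0.122) and Reck (0.147). The pattern of S100a6 was most like Por (0.120) and Aatk (0.123), and that of S100a11 most like Pacs1 (0.0710) and Gm7665 (0.0846).

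For S100a10 the nearest gene was Crip1, a small LIM protein, at an RMS of 0.128, followed by Ms4a6c (0.263). For S100a4 they were Ptpro (0.267) and F10 (0.275), for S100a1 Dpagt1 (0.120) and Arl10 (0.127), and for S100a13 Cnot11 (0.0615) and Mapre1 (0.0628). Within the family, S100a8 and S100a9 differed by an RMS of 0.179, S100a6 and S100a11 by 0.176 and S100a4 and S100a10 by 0.488. The 8 libraries share their 4 groups, so that any gene set by the sort has a like pattern, and these distances are a description.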

How the data were processed

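RNA-seq libraries of sorted CD11b+Gr-1hi and CD11b+Gr-1lo cells were grouped by the tissue and subset in their titles. Per the paper's methods, stranded mRNA libraries were read as 101 bp pairs, checked with FastQC, aligned to GRCm38 with STAR and counted per gene with featureCounts. The deposited table holds the authors' raw counts per gene, with no normalization, for 8 libraries. The members and gene lists were chosen with earlier results of these data known. Depth was 33453580 to 68316154 counts, and a count of 0 allows up to 3 counts.

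The tests used edgeR 4.0.16 (R 4.3.3) with filterByExpr, TMM scaling and a robust quasi-likelihood fit of all 8 libraries, in which each group had its own term and 4 residual degrees of freedom were left. Benjamini-Hochberg adjustment ran over 17650 genes, and the SE is the log2 FC divided by the root of F. The thresholds were an FC of at least 2 and an adjusted p of at most 0.05. CPM are TMM-scaled. TPM use exon lengths of GENCODE M21, found for 53947 of 54188 genes. The 2 libraries of each group were distinct beyond sampling noise, most of all in SP Gr-1hi cells. The chi-square per degree of freedom was 71.2 in SP Gr-1hi, 23.3 in SP Gr-1lo, 21.9 in BM Gr-1hi and 20.0 in BM Gr-1lo cells. The procedure was tested on simulated data. Alternatives were RLE, upper-quartile and total-count scaling, DESeq2 1.42.0, no filter, quantile-normalised TPM (the values the study tested with edgeR, rebuilt here with M21 lengths) with the exact test, the 4 libraries compared alone, and libraries left out.

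The genes named are the 8 members, the genes of the lists, checks of the labels, and for each member the 2 nearest genes outside the family. Promoter windows came from RefSeq. Some genes of the list of EF-hand proteins outside the family are counted but not reported here by name.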

Additional observations from a re-analysis of the deposited data

Results flagged for a closer look

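The difference between Gr-1hi and Gr-1lo cells was not the same in SP and BM for 4 members, by the interaction term of the edgeR fit. On the log2 scale, SP minus BM, it was -1.65 for S100a8 (adjusted p = 0.00440), -1.77 for S100a9 (adjusted p = 0.00321), 2.32 for S100a10 (adjusted p = 0.00381) and -0.69 for S100a11 (adjusted p = 0.0101). The first 3 were called in all 14 alternatives tried. S100a11 stayed below an FC of 2 in each of them, and without libraries 5 and 7 its value was -0.66 with an adjusted p of 0.0630. For all 4 genes the subset gap was narrower in the SP. No group was large enough for a test of single outlying libraries.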

How the results depend on the processing

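Of 624 values of single genes under an alternative, 607 kept their direction and side of the threshold, 4 lost the call, 6 gained it and 7 changed direction. Of 96 group levels under another scaling, 50 stayed within 1 SD. The number of members called between SP and BM Gr-1hi cells was 1, and 1 to 2 when single libraries were left out, with 2 without library 10. On quantile-normalised TPM it was also 1, but S100a4 in place of S100a10. Between SP and BM Gr-1lo cells it was 1, became 2 with no filter and 2 with upper-quartile scaling, and 0 without libraries 5 and 7; leaving out single libraries gave 0 to 2, with 0 without library 7 and 2 without library 8. Between SP subsets it was 7, and 3 at the stricter threshold. Left out of the total, the 10 other genes of most counts moved the S100a8 and S100a9 share to 5.90% in BM Gr-1hi and 0.359% in BM Gr-1lo cells. Values that changed direction were all near 0 in the main analysis. For SP over BM Gr-1lo cells, S100a11 became -0.0185 with DESeq2, -0.00592 on quantile-normalised TPM and -0.0185 with RLE, and ran from -0.0354 (without library 12) to 0.116 when single libraries were left out, as S100a13 did from -0.239 to 0.0158 (without library 12). For BM subsets S100a13 became -0.27 on quantile-normalised TPM and -0.68 with total counts. The causes were not tested. The study calls the BM cells autologous, but the labels do not say which libraries share a mouse. No paired analysis was possible, since no replicate number in the labels occurs in more than 1 group. With 2 libraries per group, the spread was pooled over groups, also where a group was left with 1 library.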
